A study of Homo sapiens with 6 samples.

Results

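The ZEB, SNAIL and TWIST proteins, the E proteins TCF3 and TCF4 and the homeobox factor PRRX1 are transcription factors of mesenchymal cells, and 9 genes for them were followed here: ZEB1, ZEB2, SNAI1, SNAI2, TWIST1, TWIST2, PRRX1, TCF3 and TCF4. They were taken by symbol through their Entrez gene IDs, and all 9 had a row among the 28395 genes of the count table. RNA came from TC28a2 cells, an immortalised human chondrocyte line, and was read by DRUG-seq, an RNA sequencing method built for many samples at low cost. Cells had been transfected with an FAP overexpression vector (3 libraries) or with a control vector (3 libraries), and RNA was taken 48 hours later from both groups. FAP, or fibroblast activation protein, cleaves peptides at the cell surface and is typical of activated fibroblasts. The labels name no other treatment or genotype, and they give neither the vector backbone nor the share of cells that took it up, so each value averages over all cells of a culture. Nor do they state whether each replicate was a culture of its own, and the p-values cover the variation between these 6 libraries, which may be technical.

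These factors are best known from the epithelial to mesenchymal transition, in which cells lose their lateral junctions and become motile. ZEB1 and ZEB2 are zinc finger and homeodomain proteins, and SNAI1 and SNAI2 are zinc finger proteins; all bind E-boxes in DNA and repress epithelial genes such as CDH1, the gene of E-cadherin. TWIST1 and TWIST2 are basic helix-loop-helix proteins that pair with E proteins, the products of TCF3, TCF4 and TCF12, while ID proteins bind E proteins and keep them off DNA. PRRX1 marks limb and craniofacial mesenchyme. The title of the series names ZEB1 as the main regulator of a senescent cell population in osteoarthritic cartilage and meniscus, and the comparison of vectors asks how raised FAP alters the transcriptome, these factors included.

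ZEB1 and ZEB2 are also known targets of the miR-200 family, small RNAs of epithelial cells that bind the 3′ untranslated regions of their mRNAs through a seed (bases 2 to 8). The family is shown because its genes belong to the same circuit and have rows in the count table. In the mature sequences below, from RefSeq (GRCh38.p14), the capitals mark the seed, which divides the 5 miRNAs into a group with AACACUG and a group with AAUACUG.
hsa-miR-141-3p: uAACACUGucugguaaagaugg
hsa-miR-200a-3p: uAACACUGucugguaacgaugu
hsa-miR-200b-3p: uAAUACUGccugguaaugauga
hsa-miR-200c-3p: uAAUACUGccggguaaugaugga
hsa-miR-429: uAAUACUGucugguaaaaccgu

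The match to the seed AAUACUG, read as CAGTATT in the mRNA sense, occurred 6 times in the 3′ untranslated region of the longest protein-coding ZEB1 transcript of GENCODE release 29 and 5 times in that of ZEB2. For the seed AACACUG the match is written CAGTGTT and occurred 3 times in ZEB1 and 4 times in ZEB2. The first CAGTATT of each is given with its flanks, the capitals marking the match, at chr10:31527618-31527647 on the plus strand for ZEB1 and at chr2:144389045-144389074 on the minus strand for ZEB2 (GRCh38).
ZEB1 site: attgttttatcttatCAGTATTatcactct
ZEB2 site: cgcactaccatacatCAGTATTtttattat

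The rows of the 5 miR-200 family genes held 0 counts in all 6 libraries. Gene counts of such libraries are no measure of mature miRNAs, so these rows give no level of the miRNAs themselves. The seed matches are a property of the transcripts and say nothing of whether they were in use.

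The FAP libraries held 1396, 3182 and 4733 counts of FAP, and the control libraries 0, 11 and 5, so all 6 libraries matched their labels. Library totals lay between 6275038 and 13839743 counts in the FAP libraries and between 5736056 and 12446373 in the controls. FAP replicate 3 differed from both other FAP libraries more than those did from each other (chi-square per degree of freedom of 16.2 and 15.5, against 5.74 between those), while the control pairs had 5.21 to 6.78. Of 13373 genes tested with edgeR's quasi-likelihood test, 30 were called, with a Benjamini-Hochberg adjusted p below 0.05, 13 higher and 17 lower in FAP libraries. With library totals in place of TMM scaling the split was 13 higher and 6 lower.

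Markers were read as levels to check the labelled cell type. SOX9, the main transcription factor of chondrocytes, was at 37.4 ± 5.66 CPM in FAP libraries and 28.8 ± 5.31 CPM in controls (SD, n = 3 each), CPM being the usual depth-scaled count, here with library sizes scaled by TMM. The other 15 of 16 chondrocyte markers, COL2A1 and ACAN among them, had means under 1 CPM over the 6 libraries, so cartilage matrix genes did not mark these cells. Mesenchymal markers were abundant: VIM, the gene of vimentin, was at 1694 ± 98.8 CPM in FAP libraries and 1655 ± 162 CPM in controls, and CDH2, N-cadherin, at 174 ± 15.5 and 177 ± 8.84 CPM. Of 7 leukocyte markers 4, and of 6 endothelial markers 5, had means under 1 CPM. Summed levels of the leukocyte list were 19.3 to 23.4 CPM in FAP libraries and 20.4 to 22 CPM in controls, with CD68 as the most abundant gene. Summed levels of the endothelial list were 1.98 to 2.67 CPM in FAP libraries and 1.03 to 1.46 CPM in controls.

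All 9 factors were expressed in TC28a2 cells at both vectors, and none was called between them. Each passed the low-count filter, with 59 to 1378 counts in a library, so none depended on a single group to be tested. With the number called at 0 of 9, the share called over all genes was 0.224%; 1 of the 9, SNAI2, had an unadjusted p under 0.05, against 9.91% of all genes. DESeq2 called 0 of the 9 (1.17% of the genes to which it gave an adjusted p), and limma-voom called 0 (0.157% of all genes tested). Log2 fold changes ran from -0.29 for PRRX1 to 0.33 for SNAI2, with standard errors between 0.10 and 0.20, and adjusted p-values from 0.428 to 0.922. In these bulk libraries, fewer expressing cells and less RNA per cell cannot be told apart. These p-values do not show that the factors were unaffected. The 95% intervals of the folds reached from 0.62 at their lowest bound to 1.58 at their highest.

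**Figure D1:**
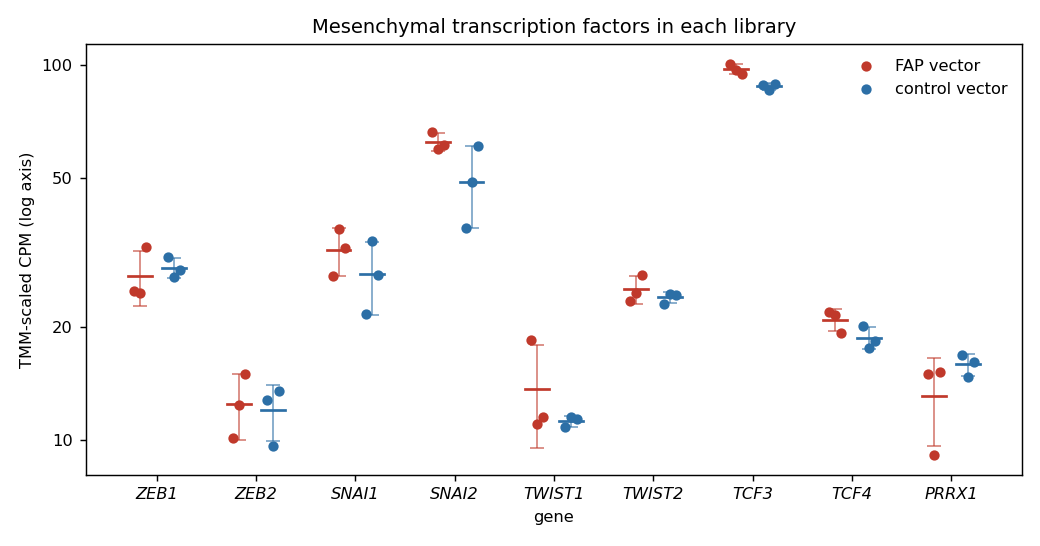
TMM-scaled CPM (log axis) of the 9 factors in each of the 3 FAP vector libraries (red, left of each pair) and the 3 control vector libraries (blue), with the mean (bar) and SD (whisker). The groups overlap at every gene except TCF3, whose FAP libraries lie at 94.6 to 101 CPM and controls at 85.9 to 89.3 CPM.

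ZEB1 (Entrez 6935; GRCh38 chromosome 10, 31318417 to 31529804) had 24.9, 24.6 and 32.7 CPM in FAP replicates 1, 2 and 3, against 30.7, 27.2 and 28.4 CPM in control replicates 1, 2 and 3. FAP replicates 1 and 2 lay below every control and FAP replicate 3 above every control, so the groups overlapped, at a log2 fold change of -0.06 (SE 0.14, 95% interval of the fold 0.79 to 1.17, edgeR adjusted p = 0.922). Without FAP replicate 3, the library that stood apart, it was -0.21 (adjusted p = 0.574), and without FAP replicate 2 it was 0.02. The coefficient of variation was 16.8% between FAP libraries and 6.15% between controls, where counting error alone gives 6.21% and 6.52%.

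ZEB2 (Entrez 9839; chromosome 2, 144384081 to 144520119), the paralog of ZEB1 and known as SIP1 for its binding of SMAD proteins, was at 10.1, 12.4 and 15 CPM in FAP libraries and at 12.8, 9.61 and 13.5 CPM in controls. Its libraries interleaved between the groups, with a log2 fold change of 0.09 (SE 0.19, 95% interval of the fold 0.80 to 1.40, edgeR adjusted p = 0.915), and it was -0.07 without FAP replicate 3 and -0.05 without control replicate 2. In both ZEB genes FAP replicate 3 held the highest level of the 6 libraries.

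The counts of the ZEB genes may be affected by overlapping antisense genes, since it is not given in the sources used here whether strand was counted. ZEB1-AS1, which overlaps the start of ZEB1, held 9, 10 and 14 counts in FAP libraries and 8, 11 and 9 in controls, against 156 to 441 counts of ZEB1. ZEB2-AS1 held 0 counts in all 6 libraries. No other member except TCF4, which contains a miRNA gene with 0 counts, and ZEB1, which contains a pseudogene with at most 1 count, overlapped another gene of the table.

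SNAI1 (Entrez 6615; chromosome 20, 49982980 to 49988886), which encodes SNAIL, a repressor of E-cadherin, had 27.3, 36.6 and 32.5 CPM in FAP libraries, against 21.7, 34.0 and 27.5 CPM in controls. The log2 fold change was 0.21 (SE 0.15, edgeR adjusted p = 0.677). The lowest library of each group was its replicate 1, which was also the shallowest of its group, and the part of depth in this was not tested. With each library left out in turn the value ran from 0.08 without control replicate 1 to 0.38 without control replicate 2 (edgeR adjusted p = 0.945 and 0.744).

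SNAI2 (Entrez 6591; chromosome 8, 48917598 to 48921429), which encodes SLUG, a repressor known from neural crest and mesenchyme, showed the largest difference of the 9. It was at 66.2, 59.9 and 61.1 CPM in FAP libraries and at 36.7, 48.9 and 60.7 CPM in controls. The FAP libraries lay close together, while the controls spread widely and control replicate 3 lay above FAP replicate 2. The log2 fold change was 0.33 (SE 0.14, 95% interval of the fold 1.03 to 1.53, unadjusted p = 0.0253, adjusted p = 0.428 in edgeR's test). It ranged from 0.18 without control replicate 1 to 0.53 without control replicate 3, and adjusted p-values from 0.217 to 0.81 over all alternatives. Control libraries had a coefficient of variation of 24.6%, against 5.33% from counting error alone, and FAP libraries 5.43%, against 4% by counting.

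TWIST1 (Entrez 7291; chromosome 7, 19113047 to 19117636), a factor of cranial suture and limb mesenchyme, had 18.5, 11 and 11.5 CPM in FAP libraries, against 10.8, 11.5 and 11.4 CPM in controls. FAP replicate 1 alone stood above the other libraries, for a log2 fold change of 0.24 (SE 0.20, edgeR adjusted p = 0.731), and without FAP replicate 1 it was 0.00. TWIST2 (Entrez 117581; chromosome 2, 238848085 to 238910534), its close paralog in dermis and bone, had 23.5, 24.6 and 27.6 CPM in FAP libraries, against 23.0, 24.5 and 24.4 CPM in controls, a log2 fold change of 0.08 (SE 0.13, edgeR adjusted p = 0.886). TWIST2 in FAP replicate 1 lay within the range of the controls, so the high TWIST1 of that library was not shared by its paralog.

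TCF3 (Entrez 6929; chromosome 19, 1609292 to 1652615), which encodes the E proteins E12 and E47, was the factor whose groups did not overlap. It had 101, 97.3 and 94.6 CPM in FAP libraries, against 88.6, 85.9 and 89.3 CPM in controls, so every FAP library lay above every control. Such separation in the higher direction held for 7.96% of all genes tested, and 1 of the 9 factors is near that background. The log2 fold change was 0.15 (SE 0.10, 95% interval of the fold 0.96 to 1.27, edgeR adjusted p = 0.637) and lay between 0.13 and 0.17 with each library left out in turn. The coefficients of variation of 3.11% in FAP libraries and 2.05% in controls were no larger than the 3.21% and 3.75% that counting error gives.

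TCF4 (Entrez 6925; chromosome 18, 55222185 to 55635957), which encodes the E protein E2-2, had 21.9, 21.5 and 19.3 CPM in FAP libraries, against 20.1, 17.6 and 18.4 CPM in controls. The groups overlapped only in that FAP replicate 3 lay below control replicate 1. The log2 fold change was 0.16 (SE 0.14, edgeR adjusted p = 0.751). The third E protein gene, TCF12, which is not among the 9, was at 21.1 ± 1.32 CPM in FAP libraries and 21.0 ± 1.15 CPM in controls (log2 fold change 0.01).

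PRRX1 (Entrez 5396; chromosome 1, 170662768 to 170739421) had 15, 9.10 and 15.2 CPM in FAP libraries, against 16.8, 14.7 and 16.1 CPM in controls. FAP replicate 2 was the lowest library, and the others lay between 14.7 and 16.8 CPM. FAP minus control gave a log2 fold change of -0.29 (SE 0.19, 95% interval of the fold 0.62 to 1.08, edgeR adjusted p = 0.638). Leaving out FAP replicate 2 gave -0.07 and leaving out FAP replicate 3 gave -0.45, the range over all libraries left out in turn. PRRX1 and ZEB1 were the 2 of 9 factors with negative values; the other 7 were positive, against 50.7% of all genes, and the median of the 9 was 0.15 against 0.00 over all genes tested.

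**Figure D2:**
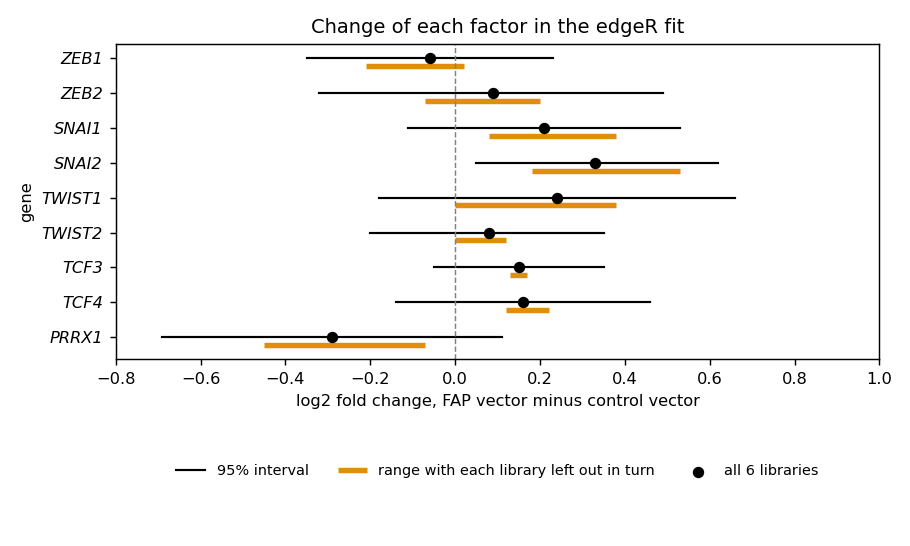
Log2 fold change of each factor, FAP vector minus control vector, in edgeR's fit of all 6 libraries (black point) with its 95% interval (black line), and the range of the value when each library was left out in turn (orange). The interval crosses 0 for 8 of the 9, SNAI2 being the exception at 0.05 to 0.62, and the orange ranges of ZEB1 and ZEB2 lie on both sides of 0.

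FAP replicate 3 was left out to see how far it set these values. Of 9 factors 0 were then called, beside 248 genes of the whole table, against 30 genes with all 6 libraries. The share of tested genes called in that fit is not given here, so 0 of 9 is not read as a result about the factors. SNAI1, SNAI2, TWIST1, TCF3 and TCF4 had log2 fold changes of 0.21, 0.34, 0.34, 0.17 and 0.22, and TWIST2 had 0.00.

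Levels were compared between the factors per kilobase of the longest protein-coding transcript, on the scale of CPM per kb. The lengths ran from 1404 bases for TWIST2 to 9583 bases for ZEB2. Which part of a transcript the reads come from is not given in the sources used here. A library that samples only 3′ ends would not need this division. In that case it would lower long transcripts such as ZEB2 and TCF4, and the order per kb below would not be one of RNA levels. SNAI2 stood first, at 25.7 ± 1.39 CPM per kb in FAP libraries and 20.1 ± 4.94 in controls. TCF3 came next at 21.9 ± 0.682 in FAP libraries and 19.8 ± 0.405 in controls, on the same scale. SNAI1, at 19.1 ± 2.78 in FAP libraries and 16.4 ± 3.63 in controls, and TWIST2, at 17.9 ± 1.52 and 17.1 ± 0.581, followed (CPM per kb).

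These first 4 did not keep their order in every library. SNAI2 exceeded TCF3 in 5 of 6 libraries, TCF3 exceeded SNAI1 in 5 of 6, and SNAI1 exceeded TWIST2 in 2 of 6. Below them the order was steadier. TWIST2 exceeded TWIST1 (8.21 ± 2.52 CPM per kb in FAP libraries and 6.73 ± 0.229 in controls) in all 6 libraries, and TWIST1 exceeded ZEB1 (4.37 ± 0.733 and 4.59 ± 0.282) in all 6.

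ZEB1 exceeded PRRX1 in all 6 libraries, with PRRX1 at 3.06 ± 0.808 CPM per kb in FAP libraries and 3.71 ± 0.245 in controls. PRRX1 exceeded TCF4 (2.50 ± 0.167 in FAP libraries and 2.24 ± 0.153 in controls) in 5 of 6. ZEB2 was last, at 1.31 ± 0.261 CPM per kb in FAP libraries and 1.25 ± 0.214 in controls, below TCF4 in all 6. The order depended on the division by length. On the scale of CPM alone TCF3, at 97.5 ± 3.04 CPM in FAP libraries and 87.9 ± 1.80 in controls, exceeded SNAI2, at 62.4 ± 3.38 and 48.8 ± 12 CPM, in all 6 libraries. ZEB1, at 27.4 ± 4.6 CPM in FAP libraries and 28.8 ± 1.77 in controls, then lay beside SNAI1, at 32.1 ± 4.68 and 27.7 ± 6.12 CPM. By mean CPM ZEB1 stood at percentile 58.4 and ZEB2 at percentile 39.1 of all genes tested.

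Ratios of counts between paralogs within a library need no scaling between libraries. The ratio of ZEB1 to ZEB2 counts was 2.48, 1.98 and 2.17 in FAP libraries and 2.40, 2.83 and 2.11 in controls. The mean log2 ratio differed by -0.14 between FAP and control libraries (two-sided exact permutation test, p = 0.5, adjusted p = 1 over 4 pairs, the smallest p that 3 against 3 allows being 0.1). SNAI1 to SNAI2 was 0.412, 0.612 and 0.532 in FAP libraries and 0.592, 0.694 and 0.452 in controls, a log2 difference of -0.16 (exact permutation p = 0.6). With each library left out in turn these differences ran from -0.24 to -0.03 for the ZEB pair and from -0.32 to 0.00 for the SNAI pair.

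TWIST1 to TWIST2 was 0.789, 0.448 and 0.417 in FAP libraries and 0.468, 0.469 and 0.468 in controls. The 3 controls were nearly equal and FAP replicate 1 stood far above them. The log2 difference was 0.17 (exact permutation p = 1), and without FAP replicate 1 it was -0.12 (exact permutation p = 0.1). After a single random thinning of all libraries to the smallest the log2 difference was 0.42 (exact permutation p = 0.1). TCF3 to TCF4 was 4.61, 4.53 and 4.91 in FAP libraries and 4.41, 4.88 and 4.84 in controls, a log2 difference of -0.01 (exact permutation p = 1). With 3 libraries against 3 this test could call no difference of any size, so the ratios are given as a description.

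The genes whose pattern over the 6 libraries was most like that of a ZEB gene were found by the root mean square difference of mean-centred log2 CPM, among 8520 genes of at least 10 CPM. For ZEB1 they were SLBP, the histone mRNA stem-loop binding protein (difference 0.0245), ARHGAP12 (0.0359) and NKIRAS2, an inhibitor of NF-kB signalling (0.040), beside a spread of ZEB1 itself of 0.15 on that scale. ARHGAP12 had 23.8, 23.9 and 33.1 CPM in FAP libraries and 29, 26.3 and 26.7 CPM in controls. It lies on chromosome 10 at 31805398 to 31928876, close to ZEB1. For ZEB2 they were JRKL (0.0398), HLTF, a helicase-like transcription factor (0.0583), and FAR1, a fatty acyl-CoA reductase of peroxisomes (0.0637), beside a spread of ZEB2 of 0.23. With 6 libraries and 8520 candidates some profiles fall close by number alone, so the likeness is a description.

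Partners and inhibitors of the E proteins were expressed in part, 5 of 13 with means of at least 10 CPM and 6 with means under 1 CPM. None was called. Of 13 listed genes 7 passed the filter, 4 with positive and 3 with negative log2 fold changes (median 0.01, against 0.00 over all genes). ID3, an inhibitor of E proteins, had 129, 124 and 129 CPM in FAP libraries, against 156, 137 and 147 CPM in controls. Every FAP library lay below every control (log2 fold change -0.20, SE 0.10, edgeR adjusted p = 0.488). Of all genes 16% were separated in either direction and 7.96% in the higher direction. ID3 was named for its small p. Its relative ID1 had 49.0, 57.0 and 53.3 CPM in FAP libraries and 68.9, 54.5 and 66.3 CPM in controls (-0.24, edgeR adjusted p = 0.491), with overlap.

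ID2 and ID4 were low, ID2 at 2.79 ± 1.32 CPM in FAP libraries and 2.69 ± 1.80 CPM in controls, and ID4 with at most 13 counts in a library. MSC (musculin), a helix-loop-helix repressor that pairs with E proteins, had 21.2, 21.5 and 14.3 CPM in FAP libraries, against 9.68, 13.7 and 13.7 CPM in controls. The FAP libraries lay above the controls, as in 7.96% of all genes tested (log2 fold change 0.59, SE 0.19, edgeR adjusted p = 0.282). MSC was called without FAP replicate 3, its lowest FAP library (0.76, edgeR adjusted p = 0.0109). In that fit 248 genes were called, against 30 with all 6 libraries. Over all alternatives its edgeR, DESeq2 or limma adjusted p lay between 0.0109 and 0.676. HAND1, CBFA2T3 and RUNX1T1 were at 0 counts in all libraries.

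The proteins through which ZEB and SNAIL factors act on chromatin were all expressed. All 24 listed corepressors and coactivators passed the filter, 0 were called, 16 had positive values and 8 negative ones (median 0.08, against 0.00 over all genes). MTA1, a subunit of the NuRD complex, had 60.3, 57.2 and 50.8 CPM in FAP libraries and 41.1, 49.9 and 47.6 CPM in controls. Its groups did not overlap, a separation in the higher direction that 7.96% of all genes showed (log2 fold change 0.27, SE 0.12, edgeR adjusted p = 0.445). PRMT5, an arginine methyltransferase, was low, with 14, 48 and 64 counts in FAP libraries and 4, 22 and 24 in controls (1.00, SE 0.41, edgeR adjusted p = 0.423).

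Genes that control the turnover or modification of the SNAIL, TWIST and ZEB proteins gave the smallest adjusted p of any list. Of 25 listed genes 23 passed the filter, 0 were called, 13 were positive and 10 negative (median 0.00, against 0.00 over all genes). PSMD14, a deubiquitinase of the proteasome lid, had 197, 207 and 182 CPM in FAP libraries, against 255, 250 and 260 CPM in controls. All FAP libraries lay below all controls, where 16.0% of all genes were separated in either direction and 7.96% in the higher direction. The log2 fold change was -0.38 (SE 0.09, edgeR adjusted p = 0.116), and the gene was called by DESeq2 (adjusted p = 0.00737) and in edgeR's fit with no low-count filter (adjusted p = 0.0417). Its adjusted p lay between 0.00737 and 0.471 over all alternatives. CTDSP1, a small C-terminal domain phosphatase, had 43.7, 45.7 and 39.1 CPM in FAP libraries and 32.9, 37.6 and 33.6 CPM in controls (0.30, SE 0.12, edgeR adjusted p = 0.405).

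Other transcription factors of mesenchymal transition were listed to place the 9 among them. Of 24 listed, 14 had means of at least 10 CPM and 5 had means under 1 CPM, while all 9 factors were above 10 CPM. FOXQ1, KLF8 and TBXT were at 0 counts in all libraries. Of the 19 that passed the filter 0 were called, 12 being positive and 7 negative (median 0.07, against 0.00 over all genes). HMGA2, a chromatin protein upstream of SNAI1 and TWIST1 in other cells, had 70.1, 71.1 and 69.5 CPM in FAP libraries, against 81.5, 82.4 and 94.1 CPM in controls. Every FAP library was lower (log2 fold change -0.30, SE 0.10, edgeR adjusted p = 0.326). Of all genes 16% were separated in either direction and 7.96% in the higher direction. MSX1, a homeobox factor of limb and tooth mesenchyme, had 99.6, 80.8 and 72.1 CPM in FAP libraries and 95.3, 105 and 106 CPM in controls (-0.29, SE 0.11, edgeR adjusted p = 0.405).

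**Figure D3:**
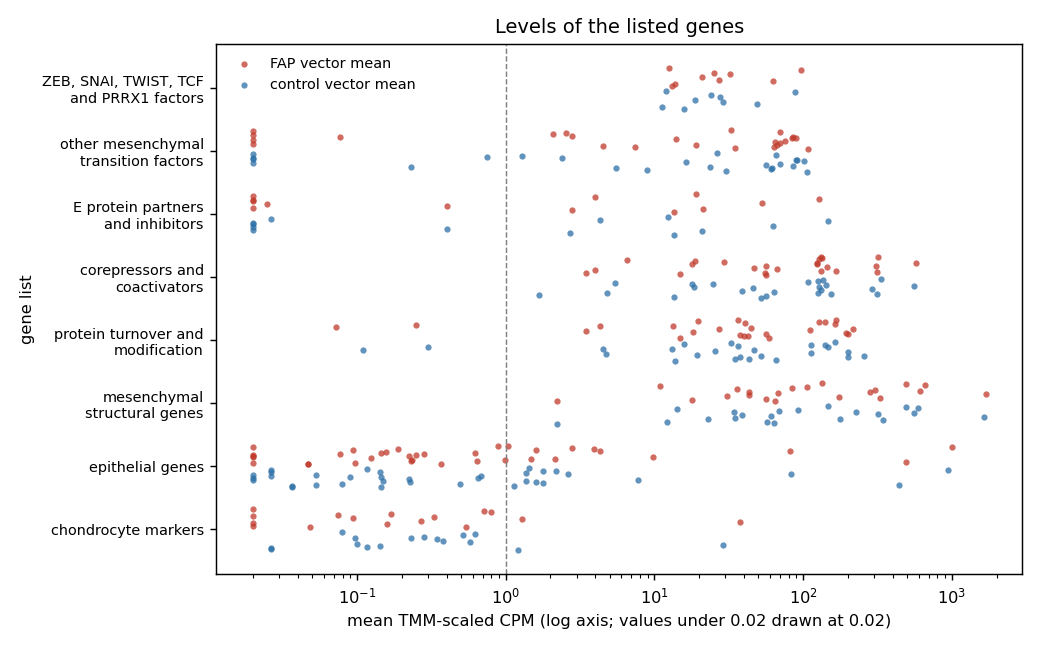
Mean TMM-scaled CPM (log axis) of each listed gene in FAP vector libraries (red) and control vector libraries (blue), by gene list, with the dashed line at 1 CPM. The 9 factors all lie above 10 CPM, while 23 of 35 epithelial genes and 15 of 16 chondrocyte markers have means under 1 CPM over the 6 libraries.

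Epithelial genes were mostly under 1 CPM, and KRT8, KRT18 and DSP were the most abundant. LSR came next, at 9.84 ± 1.07 CPM in FAP libraries and 7.75 ± 1.4 CPM in controls. Of 36 listed, 35 were analysed here and 23 of these had means under 1 CPM. The 8 genes that define epithelial cells summed to 3.56 to 4.95 CPM in FAP libraries and 1.28 to 2.77 CPM in controls. Of them 6 held no more than 15 counts in any library, with 1 at 0. The part of this in the values of the 9 factors was not tested. Most of each sum was CLDN4, a claudin, at 3.03, 2.82 and 2.45 CPM in FAP libraries and 1.28, 1.75 and 2.3 CPM in controls (edgeR adjusted p = 0.658). CDH1 held 0, 2 and 0 counts in FAP libraries and 0, 4 and 0 in controls. EPCAM, an epithelial adhesion molecule, held 4, 3 and 0 counts in FAP libraries and 0, 0 and 1 in controls, and OVOL1, a factor that represses ZEB1 in epithelia, 0 in all. KRT19, another keratin of simple epithelia, held 0 counts in all FAP libraries and 0, 4 and 0 in controls. KRT18 and KRT8, which pair in the filaments of simple epithelia, were at 997 ± 44.8 and 495 ± 29.4 CPM in FAP libraries and at 939 ± 76.4 and 440 ± 34.5 CPM in controls. DSP, desmoplakin of desmosomes, was at 81.6 ± 21.4 CPM in FAP libraries and 83.4 ± 15.9 CPM in controls. These 3 genes, named after their values were seen, were the members of the list with means of at least 10 CPM, and the keratins have many processed copies in the genome between which reads may be shared.

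Of the epithelial genes 13 passed the filter, 0 were called, 9 were positive and 4 negative, with a median of 0.31 against 0.00 over all genes. Low genes could pass through the group where they were higher, so this median describes only those that passed. ELF3, an epithelial ETS factor, had 6, 18 and 12 counts in FAP libraries, against 0, 1 and 3 in controls. Every FAP library lay above every control, at 0.957, 1.27 and 0.889 CPM against 0, 0.109 and 0.237 CPM (log2 fold change 2.77, SE 0.78, edgeR adjusted p = 0.192). ELF3 passed the filter only through the FAP libraries, where it was higher, so its separation and fold are a description near the floor. Such separation in the higher direction held for 7.96% of all genes tested. OCLN, the tight junction protein occludin, had 3.99, 3.95 and 3.78 CPM in FAP libraries and 0.731, 3.82 and 1.98 CPM in controls (0.77, SE 0.40, edgeR adjusted p = 0.54). OCLN ranged from 0.45 without control replicate 1 to 1.38 without control replicate 2 (edgeR adjusted p = 0.823 and 0.622).

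The E-box CACCTG, or CAGGTG on the other strand, is a known binding sequence of ZEB and SNAIL proteins and of E proteins. It was sought on both strands, the spellings being reverse complements that do not overlap each other, in the 250 bases before each annotated gene start in the RefSeq promoter table (GRCh38.p14). Of 35116 such windows 17.5% held it, and of 27305 genes 20.6% held it in at least 1 window. Of the epithelial list 19 genes had a window and 11 of these held the E-box (57.9%). Both numbers include MIR200CHG, a noncoding gene of the list that is not among the 35 analysed for levels. The list holds genes already known as ZEB targets, CRB3 among them, so its share is not read as an excess over all genes. Of the 9 factors 6 had a window, ZEB1, ZEB2, TWIST2, PRRX1, TCF3 and TCF4, and ZEB1 alone held it. A match is a description of the letters and not a bound site.

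Shown here are the 2 epithelial windows with most matches and the ZEB1 window with most, in capitals where the E-box lies. CRB3, a polarity protein of the apical membrane and a known ZEB1 target, had 0, 2 and 2 counts in FAP libraries and 0, 0 and 2 in controls. CLDN7, a claudin of tight junctions, had 2, 5 and 1 counts in FAP libraries and 6, 2 and 8 in controls. The windows are chr19:6464021-6464270 on the plus strand for CRB3, chr17:7262479-7262728 on the minus strand for CLDN7 and chr10:31318966-31319215 on the plus strand for ZEB1.
CRB3 window: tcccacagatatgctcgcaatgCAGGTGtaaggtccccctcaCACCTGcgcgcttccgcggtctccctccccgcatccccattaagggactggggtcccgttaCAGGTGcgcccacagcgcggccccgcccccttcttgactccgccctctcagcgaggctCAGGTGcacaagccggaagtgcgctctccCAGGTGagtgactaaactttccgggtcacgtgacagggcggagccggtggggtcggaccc
CLDN7 window: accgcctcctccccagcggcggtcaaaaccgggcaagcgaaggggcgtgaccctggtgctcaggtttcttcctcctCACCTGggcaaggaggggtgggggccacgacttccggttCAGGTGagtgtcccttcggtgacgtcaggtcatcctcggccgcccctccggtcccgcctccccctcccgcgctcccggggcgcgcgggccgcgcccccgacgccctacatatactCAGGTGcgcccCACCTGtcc
ZEB1 window: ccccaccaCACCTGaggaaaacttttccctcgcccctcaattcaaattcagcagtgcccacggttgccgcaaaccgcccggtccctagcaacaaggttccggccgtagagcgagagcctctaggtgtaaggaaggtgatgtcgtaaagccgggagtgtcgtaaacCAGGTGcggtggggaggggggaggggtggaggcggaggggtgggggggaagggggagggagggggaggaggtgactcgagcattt

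The CRB3 window held 5 E-boxes, beginning 228, 208, 147, 89 and 60 bases before the gene start. The CLDN7 window held 4, at 174, 135, 20 and 9 bases, and the ZEB1 window 2, at 242 and 85 bases. E-boxes and low levels went together in some genes of the list and not in others, and a link was not tested. DSP, with 2 E-boxes in its window, was among the abundant genes. CLDN1, CLDN3 and EHF, with no E-box in any window, held at most 4 counts in a library. On the other side KRT8, with 0 E-boxes in its window, was abundant. RAB25 and S100A14, with 1 E-box each, held at most 1 and 2 counts in a library. No binding was measured.

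Mesenchymal structural genes were abundant at both vectors. All 21 listed passed the filter, 20 had means of at least 10 CPM, 0 were called, and 15 were positive and 6 negative (median 0.06, against 0.00 over all genes). COL3A1, a fibrillar collagen chain, had 16.8, 19.1 and 17.8 CPM in FAP libraries, against 9.50, 14.3 and 12.6 CPM in controls (log2 fold change 0.54, SE 0.17, edgeR adjusted p = 0.276). COL5A1, a chain of collagen V, had 83.1, 82.9 and 87.5 CPM in FAP libraries and 64.5, 66.3 and 75 CPM in controls (0.30, SE 0.10, edgeR adjusted p = 0.326). In both collagens every FAP library lay above every control, as in 7.96% of all genes tested. Both were named for the smallest p of the list, which favours such a separation.

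**Figure D4:**
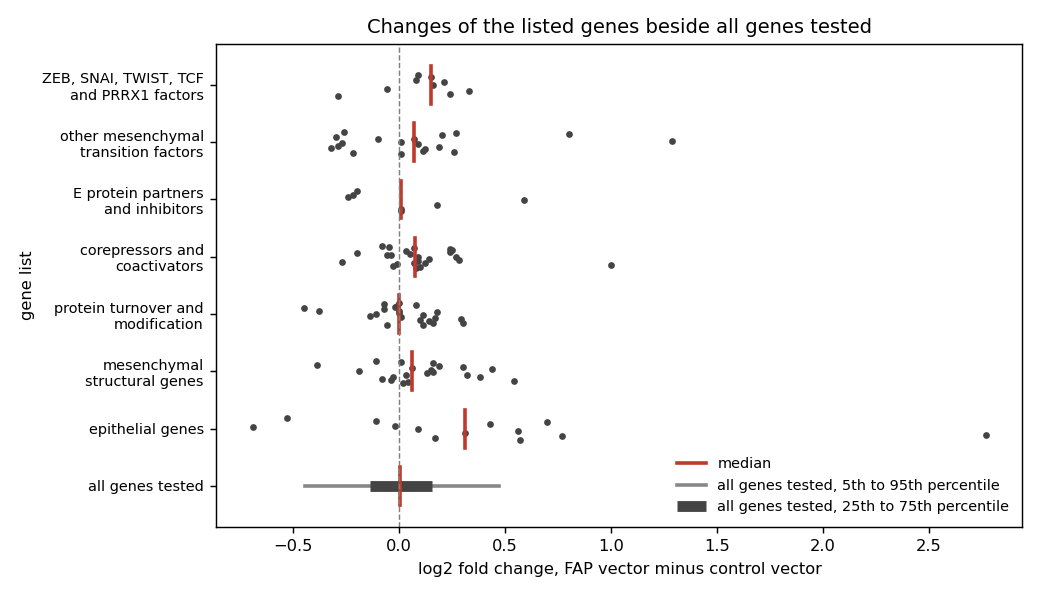
Log2 fold change, FAP vector minus control vector, of each listed gene that passed the low-count filter (points) with the median of its list (red), beside the middle 50% and 90% of all 13373 genes tested (bars at the foot). No point was called at an adjusted p under 0.05, and the point at 2.77 is ELF3, with 36 counts over the FAP libraries against 4 over the controls.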

How the data were processed

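Read counts per gene in 6 DRUG-seq libraries were used as deposited, whole numbers that the authors had not normalized, 1 column per library. HISAT2, featureCounts, Subread and the build GRCh38 appear in the submitters' processing notes. Their versions, and whether strand or molecular identifiers were used, were not given in the sources used here. Reads of overlapping genes may be mixed if strand was ignored, and amplified copies may have been counted. Entrez IDs were matched to RefSeq symbols and positions (GRCh38.p14) for 27745 of 28395 rows.

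Counts were fitted with edgeR 4.0.16 in R 4.3.3: TMM scaling, filterByExpr by group (minimum count 10, total 15), then a quasi-likelihood F test, two-sided, of FAP vector minus control vector with all 6 libraries and no covariate. Called means a p below 0.05 after Benjamini-Hochberg adjustment across all 13373 genes past the filter. The standard error is the log2 fold change over the square root of F. Counting error is the root mean of 1 over the counts. Intervals cover the spread between libraries in that fit.

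The members and gene lists were chosen with earlier results of these data known. Lists were given no test. Named were all 9 factors, any called gene of a list, the 2 genes of each list with the smallest p, marker genes as levels, and the 3 genes most like ZEB1 and ZEB2 in pattern. Other genes named by level or pattern were chosen after their values were seen, and no rule on low values removed a factor. Alternatives were RLE size factors, library totals, DESeq2 1.42.0, limma-voom (limma 3.58.1), no filter, at least 10 CPM in 3 libraries, thinning to the smallest library, a block for replicate number, and leaving out single libraries. Figures used matplotlib 3.10.9.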

Additional observations from a re-analysis of the deposited data

How the results depend on the processing

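Under the 8 alternatives that kept all 6 libraries the 9 factors kept the direction of their log2 fold change in 72 of 72 values before rounding. ZEB1 was at 0.00 with library totals (edgeR adjusted p = 0.997), which is no direction. Of the 9 factors 0 were called under any alternative (edgeR, DESeq2 or limma adjusted p from 0.217 to 0.999). The share of all tested genes called is not given for every alternative, so this is not read as a result about the factors. With each library left out in turn the direction changed in 3 of 54 values. The ranges were -0.21 to 0.02 for ZEB1, which was 0.02 without FAP replicate 2, and -0.07 to 0.20 for ZEB2, which was -0.07 without FAP replicate 3 and -0.05 without control replicate 2; the cause was not tested. The number of genes called over the whole table was 30, and 19 with library totals, 152 with no low-count filter, 97 with DESeq2, 9 after thinning to the smallest library, where fewer counts entered, and 3 to 248 with a library left out. The TCF3 to TCF4 log2 ratio difference was 0.13 after thinning and -0.05 to 0.02 with a library left out, and that of TWIST1 to TWIST2 was 0.42 after thinning, against 0.17, and -0.12 to 0.35 with a library left out; the TCF3 to TCF4 value with all libraries was -0.01. TWIST1 had a log2 fold change of 0.47 after thinning, against 0.24. The thinned values come from a single random draw, and their spread between draws was not tested.

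Same-numbered libraries of the groups did not deviate together (correlations of their deviations from the group means over 13373 genes were -0.0039, 0.0203 and -0.0041), so replicate numbers were not taken as pairs. With the replicate number as a block 44 genes were called, 0 of the 9 factors among them, and SNAI2 had 0.35 (edgeR adjusted p = 0.362). The share of tested genes called in that fit is not given here, so 0 of 9 is not read as a result about the factors. ID3, MTA1, PRMT5, CTDSP1, HMGA2, MSX1, ELF3, OCLN, COL3A1 and COL5A1 were called under none of the alternatives and kept their direction where they passed the filter. With 3 libraries a group, factors of 59 to 1378 counts left intervals of the fold between 0.62 and 1.58.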
